A study of Mus musculus with 2 samples.

Results

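The genes described here present antigen to T cells: the mouse MHC genes, whose symbols begin with H2-, and 11 partners (Cd74, Ciita, Nlrc5, B2m, Tap1, Tap2, Tapbp, Psmb8, Psmb9, Psmb10 and Ctss). They were chosen by symbol alone, and a probe took the symbol that its transcript accession has in the reference annotation. Of 61 such symbols in the annotation, 45 had a probe on the array, 35 of them 1 probe and 10 of them 2, so that 55 of 27508 named probes and 45 of 20886 named genes are described. By role they are 24 class I chains (31 probes), 8 genes of the class I machinery (9 probes), 9 class II chains (11 probes), 3 class II partners (3 probes) and H2-Ke6, a hydroxysteroid dehydrogenase gene that only lies in the MHC.

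The animals were wild-type C57BL/6J males given normal (ND) or high-fat (HFD) diets during 4 weeks. Liver and adipose tissue were each measured on 1 Agilent array, with the ND pool in the green channel (Cy3) and the HFD pool in the red one (Cy5). RNA of 10 livers and of 10 fat samples went into the pools by diet; how many animals stood in each pool, their age and the fat depot are not given in the sources used here. Arrays were neither replicated nor dye-swapped. No p-value can be had, the spread between animals was not measured, and a probe's dye effect and the diet cannot be told apart.

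MHC class I molecules sit on nearly all nucleated cells and show peptides from inside the cell to CD8 T cells. The immunoproteasome cuts these peptides, the TAP transporter carries them into the endoplasmic reticulum, and tapasin helps to load them onto a heavy chain paired with beta-2-microglobulin. MHC class II molecules are made by dendritic cells, macrophages and B cells, and show peptides from endocytosed material to CD4 T cells after the invariant chain has been cut away. Interferon gamma raises both pathways, through the transactivators NLRC5 for class I and CIITA for class II. C57BL/6 mice make no E alpha chain, although the E beta gene H2-Eb1 is transcribed.

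The promoters of several members are shown because these genes are compared as groups below. The table of RefSeq promoters (build GRCm38.p6) held 34 of the 45 genes, each with 250 bases before and 50 after the start. The lines give the 200 bases before the most upstream start of each gene, 5′ to 3′ on the strand of the gene.

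H2-K1 (chr17:34000348-34000547, minus strand): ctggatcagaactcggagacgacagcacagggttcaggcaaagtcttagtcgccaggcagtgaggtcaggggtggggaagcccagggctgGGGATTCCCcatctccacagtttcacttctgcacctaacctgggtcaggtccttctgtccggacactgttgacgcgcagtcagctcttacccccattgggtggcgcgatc
H2-D1 (chr17:35262894-35263093, plus strand): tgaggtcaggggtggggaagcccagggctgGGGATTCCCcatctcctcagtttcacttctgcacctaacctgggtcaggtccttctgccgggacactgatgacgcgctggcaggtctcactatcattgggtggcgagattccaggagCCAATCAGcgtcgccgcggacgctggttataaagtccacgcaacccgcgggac
H2-Q7 (chr17:35438955-35439154, plus strand): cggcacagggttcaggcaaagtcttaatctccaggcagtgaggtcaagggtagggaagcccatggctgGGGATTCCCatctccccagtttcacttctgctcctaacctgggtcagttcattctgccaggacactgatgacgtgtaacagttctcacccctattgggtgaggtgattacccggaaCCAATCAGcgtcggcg
H2-Q10 (chr17:35469889-35470088, plus strand): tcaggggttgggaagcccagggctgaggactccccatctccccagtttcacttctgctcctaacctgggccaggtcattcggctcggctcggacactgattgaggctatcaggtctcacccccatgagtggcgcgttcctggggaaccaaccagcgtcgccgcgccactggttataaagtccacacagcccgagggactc
H2-T23 (chr17:36032702-36032901, minus strand): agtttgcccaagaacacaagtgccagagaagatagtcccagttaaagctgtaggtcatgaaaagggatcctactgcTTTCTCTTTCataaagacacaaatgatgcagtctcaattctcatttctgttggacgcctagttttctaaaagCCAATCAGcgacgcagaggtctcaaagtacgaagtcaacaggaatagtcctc
B2m (chr2:122147487-122147686, plus strand): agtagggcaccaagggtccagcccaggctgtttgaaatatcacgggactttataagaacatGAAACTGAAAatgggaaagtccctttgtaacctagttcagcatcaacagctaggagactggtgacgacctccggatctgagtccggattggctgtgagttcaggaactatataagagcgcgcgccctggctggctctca
H2-Aa (chr17:34287824-34288023, minus strand): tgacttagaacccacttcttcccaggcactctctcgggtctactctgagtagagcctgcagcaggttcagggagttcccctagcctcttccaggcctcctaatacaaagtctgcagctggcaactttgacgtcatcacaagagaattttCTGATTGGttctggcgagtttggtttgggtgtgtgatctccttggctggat
H2-Eb1 (chr17:34305667-34305866, plus strand): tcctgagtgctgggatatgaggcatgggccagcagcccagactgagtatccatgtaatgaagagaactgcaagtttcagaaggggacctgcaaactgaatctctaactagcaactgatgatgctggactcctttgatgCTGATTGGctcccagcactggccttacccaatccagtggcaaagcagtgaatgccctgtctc

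Capitals mark matches to 3 motifs, searched on both strands: the Y box with its flank (CTGATTGG, or CCAATCAG on the other strand), a kappa B site of class I promoters (GGGATTCCC) and the core of an interferon-stimulated response element (GAAA, any 2 bases, GAAA). No match of one motif overlapped a match of another in these genes. Over the full window, the Y box stood in 17 of the 34 genes (11 of 18 class I chains, 2 of 6 machinery genes, 4 of 8 class II chains), against 4.10% of all 32851 promoters in the table. The 2 machinery genes, Psmb9 and Tap1, have overlapping windows and share 1 site. A gene counted if any of its starts had a match, whereas the share counts promoters, and many class I genes are close copies. In H2-K1 the Y box begins at base 9 after the start, outside the stretch shown. The kappa B letters stood in H2-K1, H2-D1 and H2-Q7 and in 0.353% of all promoters, and the response element letters in B2m, Ctss and H2-T23 and in 3.44% of all promoters. The window of H2-Q10, a class I gene, held none of the 3 motifs, although 165 of the 191 bases that align between its stretch and that of H2-D1 (86.4%) are identical. The stretches of H2-K1 and H2-D1 match at 127 of 140 aligned bases (90.7%). A match is a description of letters and shows no binding.

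A gene was measured when a probe was well above background in both channels, which held for 34 of the 45 genes on each array. Ratios are log2 of HFD over ND, and levels are log2 normalized signals. The scanner error is the scanner software's error of the log2 ratio, with a median of 0.21 over all genes on both arrays. For a gene with several measured probes, the probes' errors were combined as if independent, which can make the gene's error smaller than a probe's. In liver 58.5% of probes and in adipose tissue 58.8% were above background in both channels. Of 39427 adipose probes, 4188 were above background in the HFD channel alone and 520 in the ND channel alone. In liver these were 867 and 790 of 39418 probes. Detection in the HFD adipose pool alone was thus common on this array, whose red channel was the brighter (median signal 247 against 92 in green). Adipocyte marker genes summed to a log2 level of 19.96 in the ND adipose pool and 14.13 in the ND liver pool, and hepatocyte markers to 20.78 in the ND liver pool. The adipose pools also differed in genes of other tissues: 25 of 25 small intestine epithelium genes were at least 2-fold higher in the HFD adipose pool (summed log2 level 16.03 to 19.92), while 12 of 21 hepatocyte genes (19.22 to 18.01; 3 were at least 2-fold higher), 12 of 13 exocrine pancreas genes (14.98 to 12.73) and 5 of 9 skeletal muscle genes (14.30 to 12.57) were at least 2-fold lower. In the HFD liver pool 10 of 12 skeletal muscle genes were at least 2-fold lower (median -1.47, 15.94 to 14.48). The part of these tissues in the values below was not tested. In bulk tissue, fewer cells of a type and less RNA per cell cannot be told apart.

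In liver, most of these genes lay slightly higher in the HFD pool. A ratio above 0 was found for 28 of the 34 measured members, against 52.3% of all 13642 measured genes, and their median ratio was 0.29 against 0.01 for all genes. The ratio exceeded 2 scanner errors on the higher side in 9 members (5.47% of all genes) and on the lower side in none (4.11% of all genes). No member reached 2-fold in either direction (0.491% of all genes higher, 0.579% lower), and at 1.5-fold H2-Q1 alone was higher (2.46% of all genes) and none lower (1.80%). Without the replacement of outlier local backgrounds, the liver medians fell to 0.18 for class I chains, 0.09 for the machinery and 0.12 for class II; 14 of 16, 6 of 8 and 7 of 9 measured genes then lay above the median of all genes.

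In adipose tissue the class I chains lay near 0, while the machinery and class II genes were mostly above it. The median ratio was 0.06 for the class I chains, 0.28 for the machinery and 0.29 for the class II chains and partners, against -0.01 for all 14315 measured genes. Of all 34 measured members 26 had a ratio above 0 (49.3% of all genes), and 9 passed 2 scanner errors on the higher side (15.2% of all genes) and 2, H2-Q10 and Tap2, on the lower side (15.4%). H2-Q1 and Ctss were at least 2-fold higher (4.23% of all genes) and H2-Q10 at least 2-fold lower (5.13%). No further member reached 1.5-fold higher (9.14% of all genes), and Tap2 joined H2-Q10 among those 1.5-fold lower (10.2%). Whether the tissues differ in these shares was not tested.

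**Figure D1:**
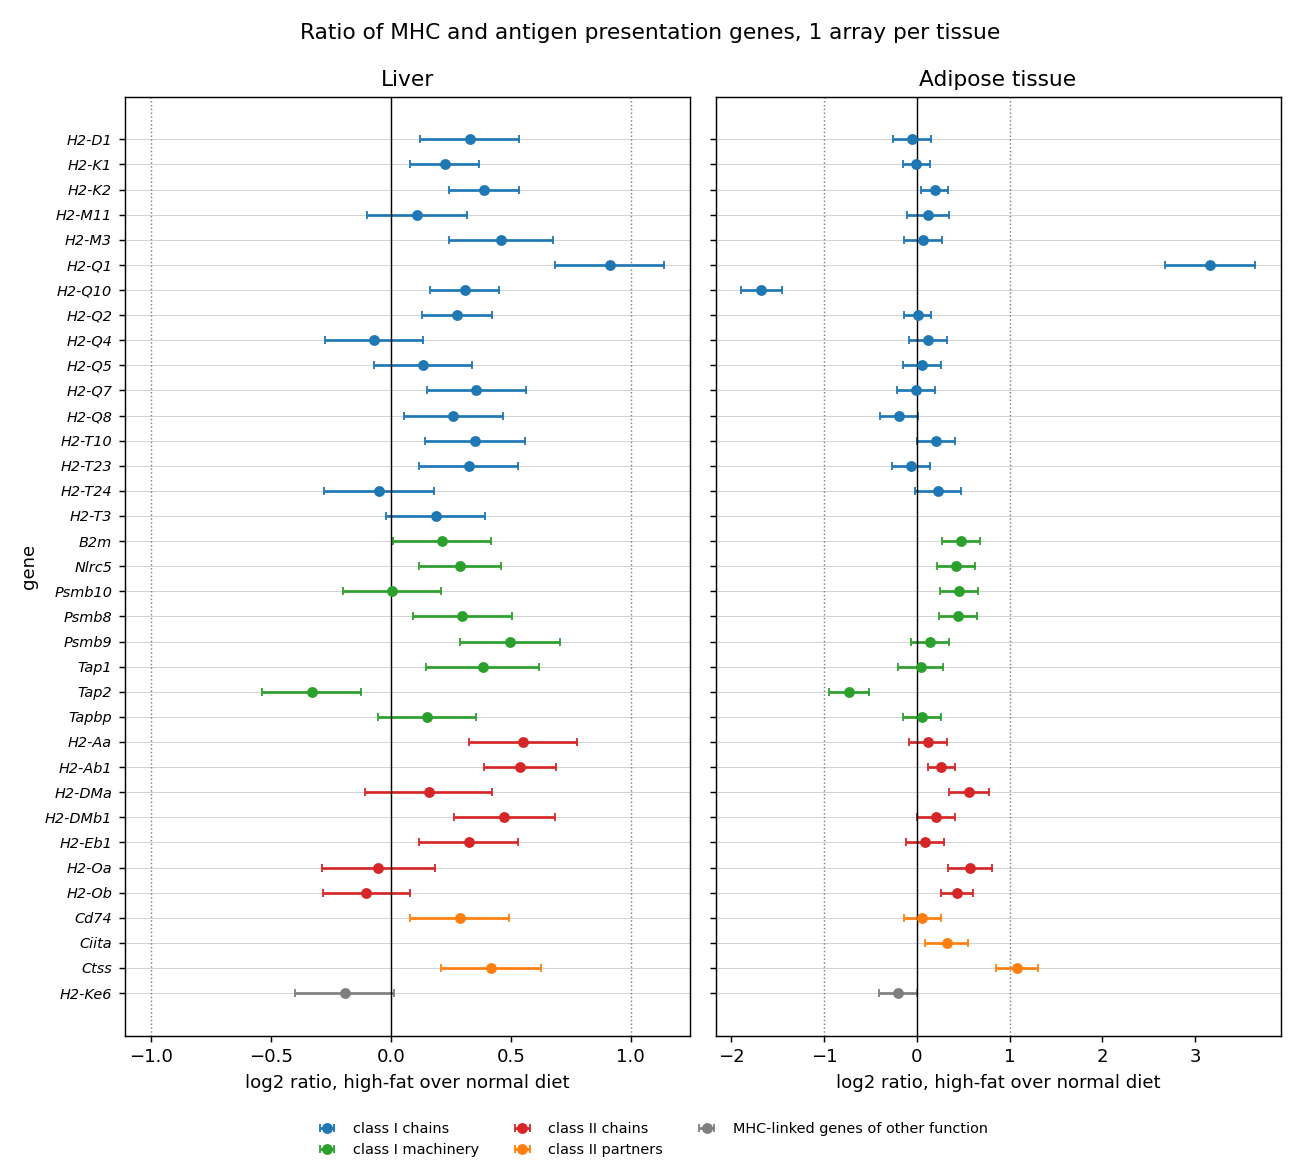
Log2 ratio of HFD over ND (x axis; the adipose panel spans a wider range) for each member measured in at least 1 tissue (y axis), coloured by role, with bars of 1 scanner error and dotted lines at 2-fold; each point is 1 array. In liver 28 of 34 points lie above 0 and none passes 2-fold, while in adipose tissue H2-Q1 at 3.16, Ctss at 1.08 and H2-Q10 at -1.68 stand past the lines.

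H2-K1 and H2-D1 encode the classical class I heavy chains of this strain. In liver H2-K1 stood at a log2 level of 14.82 in the ND pool and 15.04 in the HFD pool, a ratio of 0.23 (scanner error 0.14). H2-D1 stood at 14.03 and 14.36, a ratio of 0.33 (scanner error 0.21). Both were higher in the HFD pool, but by less than 2 scanner errors. One H2-K1 probe is printed at 10 spots: its ratio was 0.27 ± 0.03 (SD over 10 spots of the liver array, a technical spread), and the scanner software's own ratio for the same spots ran from 0.01 to 0.12. In adipose tissue H2-K1 was at 15.13 and 15.12 (ratio -0.01) and H2-D1 at 15.53 and 15.48 (ratio -0.05). Neither gene differed between the adipose pools by more than its scanner error.

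Among the other class I chains in liver, H2-Q1, a Qa-region gene, had the largest ratio, 0.91 (scanner error 0.23, 1.88-fold), from a level of 8.78 to 9.69. H2-M3, which presents formylated bacterial peptides, went from 8.0 to 8.46 (0.46, scanner error 0.22), and H2-K2, a transcribed pseudogene next to the K region, from 15.06 to 15.45 (0.39, scanner error 0.15). These 3 genes and H2-Q10 are the class I chains past 2 scanner errors in liver. The means of H2-K2 and H2-Q10 passed only with the combined error of their 2 probes (0.20 to 0.21 for each probe). Taken alone, 1 H2-K2 probe passed 2 scanner errors (0.46) and the other did not (0.32). Neither H2-Q10 probe did (0.30 and 0.32). Less the running median of genes of like brightness, H2-K2 stood at 0.292 and H2-Q10 at 0.286, both just short of 2 scanner errors. H2-Q7, the gene of the Qa-2 antigen, stood at 14.87 and 15.23 (0.36). H2-T10 stood at 9.77 and 10.12 (0.35), and H2-T23, whose product Qa-1 is a ligand of natural killer cell receptors, at 14.01 and 14.34 (0.33). The remaining 8 measured chains ranged from -0.07 for H2-Q4 to 0.31 for H2-Q10. H2-Q4 and H2-T24 (-0.05) were the 2 of 16 below 0, and both turned above 0 under median centring (0.60 and 0.04). That setting put the median of all liver genes at 0.32, so H2-T24 was still below it. With outlier backgrounds kept, H2-Q1 dropped to 0.23 and H2-M3 to 0.06.

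Class I genes are close copies of each other and the probe sequences were not used here, so a probe can bind transcripts of several genes. The similar ratios of H2-K1, H2-D1, H2-K2, H2-Q7, H2-Q10 and H2-T23 in liver (0.23 to 0.39) may therefore not be separate observations.

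In adipose tissue 15 class I chains were measured, 9 above and 6 below 0. The largest ratio was again that of H2-Q1, 3.16 (scanner error 0.49, 8.93-fold), from a level of 7.32 in the ND pool to 10.48 in the HFD pool. It rests on 1 probe whose ND level is near the lowest among probes above background (6.26), and the scanner software gave 4.66. H2-T3, whose product, the TL antigen, is known from gut epithelium, was above background in the HFD adipose pool alone (6.85 to 8.29). This held for 4188 of 39427 adipose probes, against 520 above background in the ND pool alone. For H2-T3 the levels give a bound of 2.71-fold higher (log2 1.44, scanner error 0.41). Such a bound sets the HFD level against the lowest level measurable in the ND channel, or the gene's own where that is higher. It makes no allowance for the scanner error. In liver H2-T3 stood at 9.19 and 9.38 (0.19). The HFD adipose pool in which H2-Q1 and H2-T3 were high is also the pool with more of every small intestine gene listed above, such as Fabp2 (11.29 to 17.71) and Vil1 (10.20 to 14.95).

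H2-Q10 encodes a secreted class I molecule made chiefly by the liver. Its 2 probes agreed in liver, with ratios of 0.30 (15.76 to 16.05) and 0.32 (13.34 to 13.65). In adipose tissue they disagreed: 1 probe fell by 3.22 (11.83 to 8.61, scanner error 0.38) and the other was at -0.13 (9.92 to 9.79, scanner error 0.20). The gene's mean of -1.68 therefore rests on 1 probe, and without H2-Q10 the median of the adipose class I chains was 0.06 as well. The same ND adipose pool had more albumin mRNA (Alb, 14.80 to 11.18) and more Ambp (13.60 to 8.01), both hepatocyte genes, although 3 genes of that list, Apoa1 (2.08), Hnf4a (1.90) and Apob (1.62), were higher in the HFD pool.

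The other adipose class I chains with the largest ratios were H2-T24 (6.98 to 7.21, ratio 0.23), H2-T10 (10.03 to 10.24, 0.20), H2-Q8 (14.09 to 13.90, -0.19) and H2-K2 (14.22 to 14.41, 0.19). None of these 4 passed 2 scanner errors. The other 7 measured chains beside H2-K1 and H2-D1 lay between -0.06 (H2-T23) and 0.12 (H2-M11 and H2-Q4). H2-M9 was above background in the HFD pool alone (6.49 and 6.59). Its bound of 1.07-fold higher (log2 0.10) is smaller than the scanner errors of its 2 probes (0.34 and 0.71). The other 7 chains (H2-M1, H2-M5 and the 5 of the H2-M10 family, which is known from the vomeronasal organ) were not well above background in either channel of either array, and in liver this held for H2-M9 too.

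Of the class I machinery, B2m encodes the light chain that all class I heavy chains need. In liver it stood at 15.83 in the ND pool and 16.04 in the HFD pool (0.21, scanner error 0.20). At this brightness the liver ratios of all genes drift upward, with a median of 0.26 over the 107 genes of a mean level of 16 to 17. Less the running median of genes of like brightness, the liver ratio of B2m was 0.05, and the scanner software gave 0.03. In adipose tissue B2m went from 16.01 to 16.48 (0.48, scanner error 0.21), and 0.42 less the running median.

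The catalytic subunits of the immunoproteasome are encoded by Psmb8, Psmb9 and Psmb10. In liver Psmb9 had the highest machinery ratio, 0.50 (10.50 to 10.99, scanner error 0.21), the only one of the 8 past 2 scanner errors. Psmb8 stood at 10.54 and 10.84 (0.30) and Psmb10 at 13.11 in both pools (0.01). In adipose tissue the order was different: Psmb10 was at 0.45 (13.81 to 14.27), Psmb8 at 0.44 (10.48 to 10.92), both past 2 scanner errors, and Psmb9 at 0.14 (10.72 to 10.86).

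Tap1 and Tap2 encode the subunits of the peptide transporter and lie beside Psmb9 and Psmb8 in the annotation, in the order Psmb9, Tap1, Psmb8, Tap2. Tap1 and Psmb9 start from the same stretch of DNA in opposite directions. Their liver ratios were 0.50 for Psmb9, 0.38 for Tap1 (7.34 to 7.72), 0.30 for Psmb8 and -0.33 for Tap2 (11.26 to 10.93). Tap2 was the lowest member in liver, and in adipose tissue the lowest after H2-Q10, at -0.73 (13.10 to 12.37, scanner error 0.22, 1.66-fold lower). Under median centring Tap2 turned above 0, to 0.12 in liver and 0.34 in adipose tissue, still below the medians of all genes there (0.32 and 0.69). Tap1 in adipose tissue stood at 7.10 and 7.14 (0.04, scanner error 0.24), at a signal close to background. The Tap1 probe is also printed at 10 spots: in liver they gave 0.38 ± 0.07 (SD over spots, 0.28 to 0.51) and the scanner software 0.55 to 0.82, at a signal close to background. In adipose tissue the 9 spots used ran from -0.14 to 0.22.

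Tapbp, the gene of tapasin, stood at 11.32 and 11.47 in liver (0.15) and at 12.90 and 12.96 in adipose tissue (0.06). Nlrc5, the class I transactivator, went from 8.90 to 9.19 in liver (0.29, its probes at 0.51 and 0.07) and from 10.05 to 10.47 in adipose tissue (0.42, scanner error 0.21). The adipose value rests on 1 of its 2 probes, which in liver went from 10.81 to 11.32 (0.51, scanner error 0.21, past 2 scanner errors). In adipose tissue the other probe (0.17, scanner error 0.58) was above background in the HFD pool alone. The liver and adipose values of Nlrc5 are therefore not means over the same probes and cannot be set against each other. In adipose tissue B2m, Psmb8, Psmb10 and Nlrc5 thus passed 2 scanner errors on the higher side and Tap2 on the lower side, while H2-K1 and H2-D1 lay within 1 scanner error of 0. Less the running median, Nlrc5 (0.39) and Psmb8 (0.41) fell short of 2 scanner errors.

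**Figure D2:**
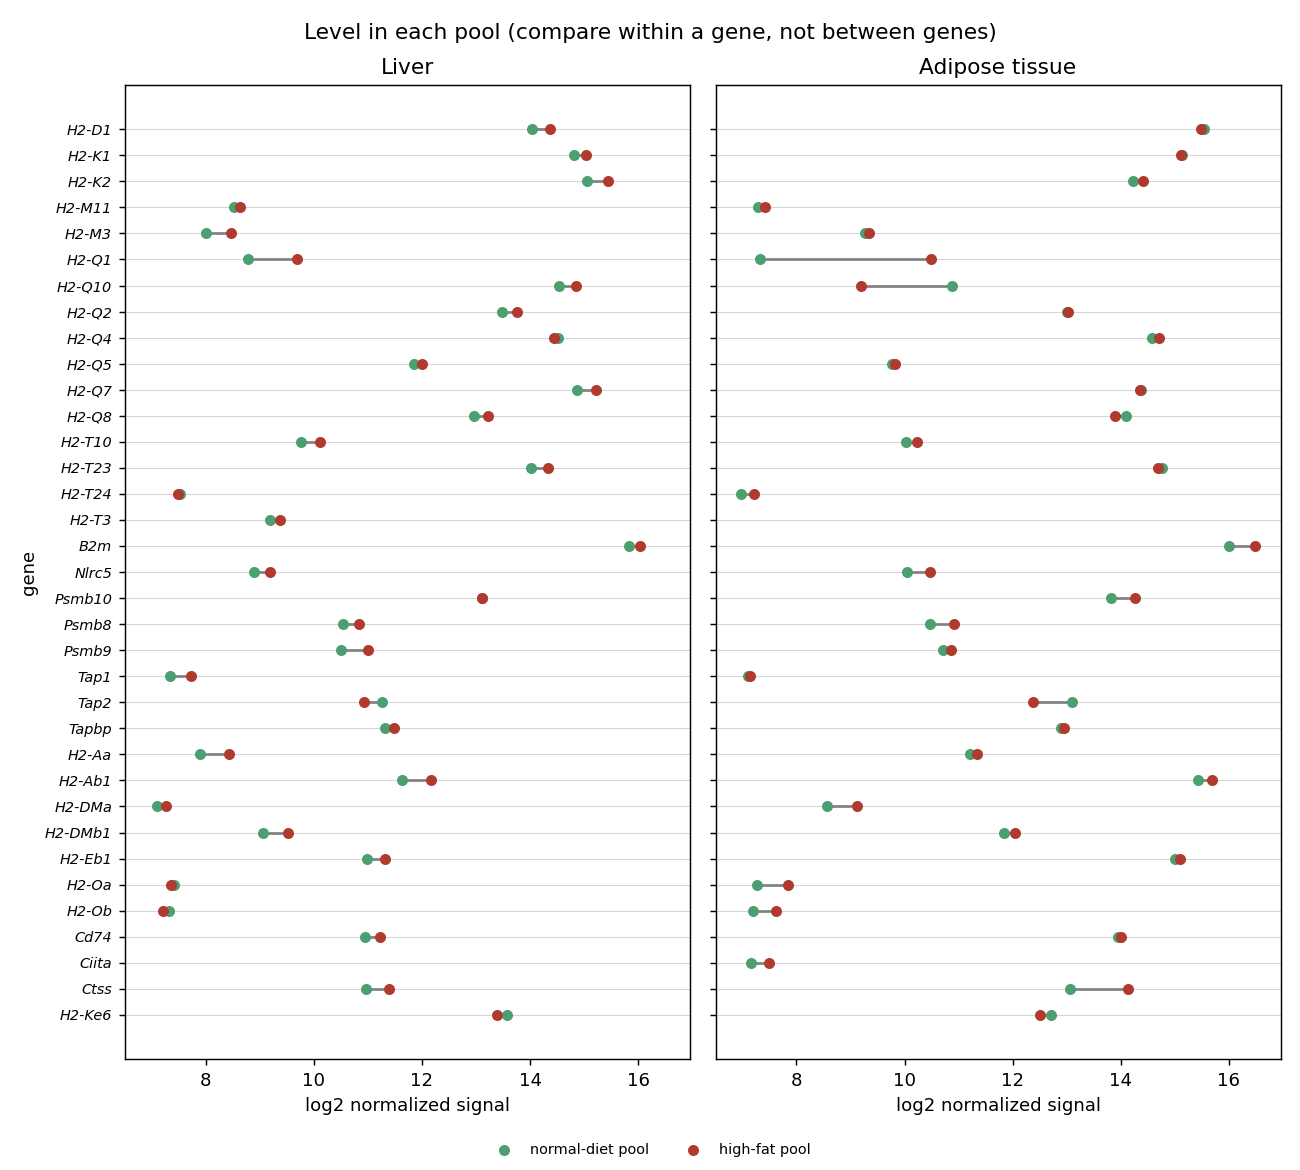
Log2 normalized signal (x axis) of each measured member (y axis) in the ND pool (green) and the HFD pool (red) of liver and adipose tissue, 1 array each; levels may be compared within a gene only. The class II genes H2-Ab1 and H2-Eb1 lie between 10.99 and 12.17 in liver and between 15.00 and 15.69 in adipose tissue, and H2-Q1 and H2-Q10 show the widest gaps between the adipose pools.

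The class II chains that bind peptide are H2-Aa and H2-Ab1, which form the I-A molecule, and H2-Eb1. In liver H2-Aa stood at 7.88 in the ND pool and 8.43 in the HFD pool (0.55, scanner error 0.22, 1.46-fold), and H2-Ab1 at 11.64 and 12.17 (0.54, scanner error 0.15, 1.45-fold). The 2 probes of H2-Ab1 gave 0.49 and 0.59. H2-Eb1 stood at 10.99 and 11.31 (0.33, scanner error 0.21). With the outlier backgrounds kept, the liver ratios were 0.06 for H2-Aa, 0.38 for H2-Ab1 and 0.17 for H2-Eb1.

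In adipose tissue the same 3 chains were far brighter and closer to 0 in their ratios. H2-Aa stood at 11.21 and 11.33 (0.12), H2-Ab1 at 15.42 and 15.69 (0.26) and H2-Eb1 at 15.00 and 15.09 (0.09). None of them passed 2 scanner errors.

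H2-DMa and H2-DMb1 encode the DM molecule, which exchanges the invariant chain fragment for peptide. In liver H2-DMb1 went from 9.05 to 9.53 (0.47, scanner error 0.21; 0.12 with the outlier backgrounds kept) and H2-DMa from 7.10 to 7.26 (0.16, scanner error 0.26). In adipose tissue H2-DMa went from 8.56 to 9.13 (0.56, scanner error 0.21) and H2-DMb1 from 11.83 to 12.04 (0.21). Each gene passed 2 scanner errors in 1 of the 2 tissues.

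H2-Oa and H2-Ob encode DO, which holds back DM and is known mainly from B cells. In adipose tissue they went from 7.27 to 7.84 (0.57, scanner error 0.24) and from 7.19 to 7.63 (0.44, scanner error 0.17), both past 2 scanner errors at a low signal. The mean of H2-Ob passed only with the combined error of its 2 probes (0.24 for each probe). Taken alone, 1 adipose probe passed 2 scanner errors (0.57) and the other did not (0.305). In liver H2-Oa and H2-Ob stood at 7.42 and 7.37 (-0.05) and at 7.32 and 7.21 (-0.10), and the 2 H2-Ob probes disagreed in sign (0.08 and -0.28). The scanner software put the liver ratio of H2-Oa at 0.18, above 0, and the adipose ratios of H2-Oa and H2-Ob at 1.01 and 0.86. B cell markers moved the same way beside them: in adipose tissue 6 of 7 measured markers were above 0 (median 0.57, summed log2 level 11.11 to 11.59) and in liver 2 of 8 (median -0.09, 11.15 to 11.01). Their part in these values was not tested; the B cell genes Blk and Pax5 were not well above background in any pool, nor Cd79a in either liver pool.

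Of the other class II chains, H2-Eb2 was above background in the HFD adipose pool alone (6.36 and 6.78) and in neither liver pool. Its bound of 1.34-fold higher (log2 0.42) is smaller than its scanner error (0.60). H2-DMb2 was not well above background on either array. Among the 3 partners, Cd74 encodes the invariant chain, which guides class II through the cell. It stood at 10.94 and 11.23 in liver (0.29, scanner error 0.21) and at 13.95 and 14.01 in adipose tissue (0.06).

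Ctss encodes cathepsin S, the protease that trims the invariant chain. It was past 2 scanner errors in both tissues: 10.97 to 11.38 in liver (0.42, scanner error 0.21, 1.33-fold) and 13.06 to 14.14 in adipose tissue (1.08, scanner error 0.23, 2.12-fold). Every adipose alternative kept Ctss at 1.06 or more, and 1 probe carries it. With the outlier backgrounds kept, its liver ratio was 0.24.

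Ciita, the class II transactivator, lay at the edge of detection. In liver it was above background in the ND pool alone (7.04 and 6.65). With a scanner error of 0.37, it had a bound of 1.31-fold lower in the HFD pool (log2 ratio -0.39). In adipose tissue it stood at 7.17 and 7.49 (0.32, scanner error 0.23). H2-Ke6, the one member with another function, was at -0.19 in liver and -0.20 in adipose tissue, each within 1 scanner error of 0 (0.20 and 0.21). It was above 0 under median centring (0.40 and 0.86), where the medians of all genes were 0.32 and 0.69.

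**Figure D3:**
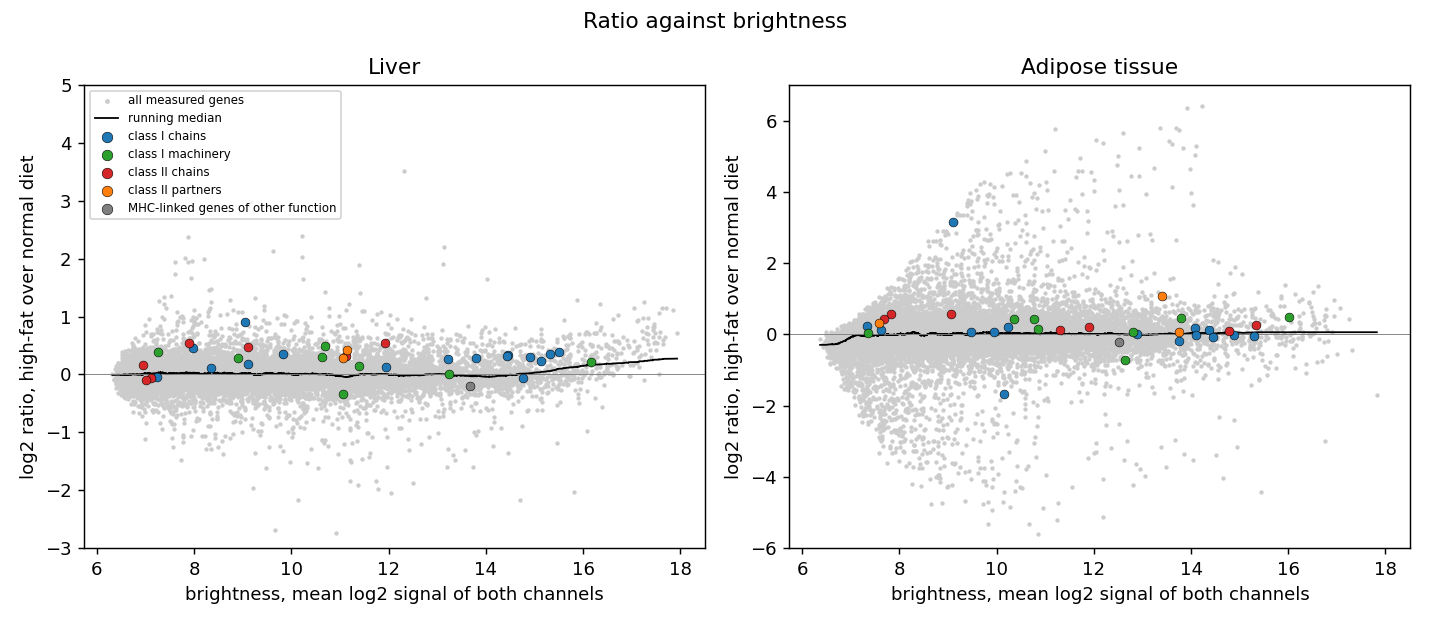
Log2 ratio of HFD over ND (y axis, wider in the adipose panel) against the mean log2 signal of both channels (x axis) for all measured genes (grey), with the running median over genes of like brightness (black) and the members coloured by role. In liver the members sit mostly above the line and B2m at 16 lies close to its upward drift, whereas in adipose tissue most class I chains lie on the line.

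Within the ND pools, the class II genes stood higher on the adipose array than on the liver array, after the mean brightness of both arrays had been given 1 distribution. The log2 difference was 4.02 for H2-Eb1 (16.2-fold), 3.79 for H2-Ab1 (13.8-fold), 3.33 for H2-Aa (10.0-fold), 3.01 for Cd74 (8.04-fold), 2.78 for H2-DMb1 (6.86-fold) and 2.09 for Ctss (4.25-fold). H2-Oa and H2-Ob, by contrast, lay at -0.15 and -0.12. Class I chains were spread in both directions: H2-D1 was higher in adipose tissue by 1.5 (2.83-fold) and H2-K1 by 0.31, and B2m by 0.17, while H2-Q10 was lower by a difference of -3.67, H2-Q5 of -2.09 and H2-Q1 of -1.45. Each tissue had an array of its own, so tissue, slide and scan cannot be told apart here.

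Macrophage markers, whose cells carry class II, also stood higher in the ND adipose pool (summed log2 level 14.32) than in the ND liver pool (13.16). Markers of Kupffer cells, the resident macrophages of liver, ran the other way in their sum, at 11.86 in the ND adipose pool and 13.96 in the ND liver pool. Folr2 of that list did not (11.19 and 9.09). Between the liver pools the Kupffer markers had a median ratio of 0.09 (13.96 to 13.99). Of the 6, 5 were above 0, while Marco was 2.43-fold lower in the HFD pool (-1.28). Between the diets the 14 measured macrophage markers had a median ratio of 0.11 in adipose tissue (14.32 to 14.30) and 0.12 in liver (13.16 to 13.34), with 11 and 13 above 0. Dendritic cell markers were above 0 in 8 of 8 in adipose tissue (median 0.33, 12.44 to 12.84) and in 5 of 9 in liver (median 0.13, 11.93 to 12.15). Xcr1, a marker of cross-presenting dendritic cells, was not well above background in any pool. General leukocyte markers were above 0 in 3 of 5 in adipose tissue (median 0.04, 16.45 to 14.44, Cd52 at -2.40) and in 5 of 5 in liver (median 0.15). For T and NK cell markers these were 5 of 9 (median 0.33) and 7 of 9 (median 0.04). For plasma cell markers they were 6 of 6 (median 0.57) and 2 of 6 (median -0.09). The part of these cells in the class II values was not tested.

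Other genes of the pathway served as a frame. Of 28 measured genes of antigen processing outside the members, 16 were above 0 in liver (median 0.01) and 20 in adipose tissue (median 0.15). Among the largest liver ratios were those of the transcription factor Irf1 (11.41 to 11.96, 0.55), of Ctsl, a lysosomal protease (-0.28), and of Pdia3, a chaperone of peptide loading (-0.24). In adipose tissue they were Cd1d1, which presents lipids (12.89 to 14.08, 1.19), Ifi30, the lysosomal thiol reductase (0.79), Hfe, an iron regulator of class I fold (0.74), and Cd40, a costimulatory receptor (0.70). Cd1d1 was the 1 gene of this list at least 2-fold higher, and in neither tissue was one at least 2-fold lower.

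Targets of interferon gamma, a list that overlaps the last one (Irf1 is in both), were above 0 for 16 of 18 in liver (median 0.49) and for 12 of 17 in adipose tissue (median 0.24). In liver the guanylate-binding protein gene Gbp3 led (9.0 to 10.18, 1.18), followed by the immunity-related GTPase genes Irgm2 (0.68), Igtp (0.64) and Irgm1 (0.63). In adipose tissue Irf8, a transcription factor of myeloid cells, led (10.11 to 11.20, 1.09), followed by Gbp4 (0.96), Gbp3 (0.77) and Irf1 (0.65). Irgm2, Igtp and Irgm1 were at -0.10, 0.03 and -0.18 there. These lists describe the same arrays as the members and add no separate sample.

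**Figure D4:**
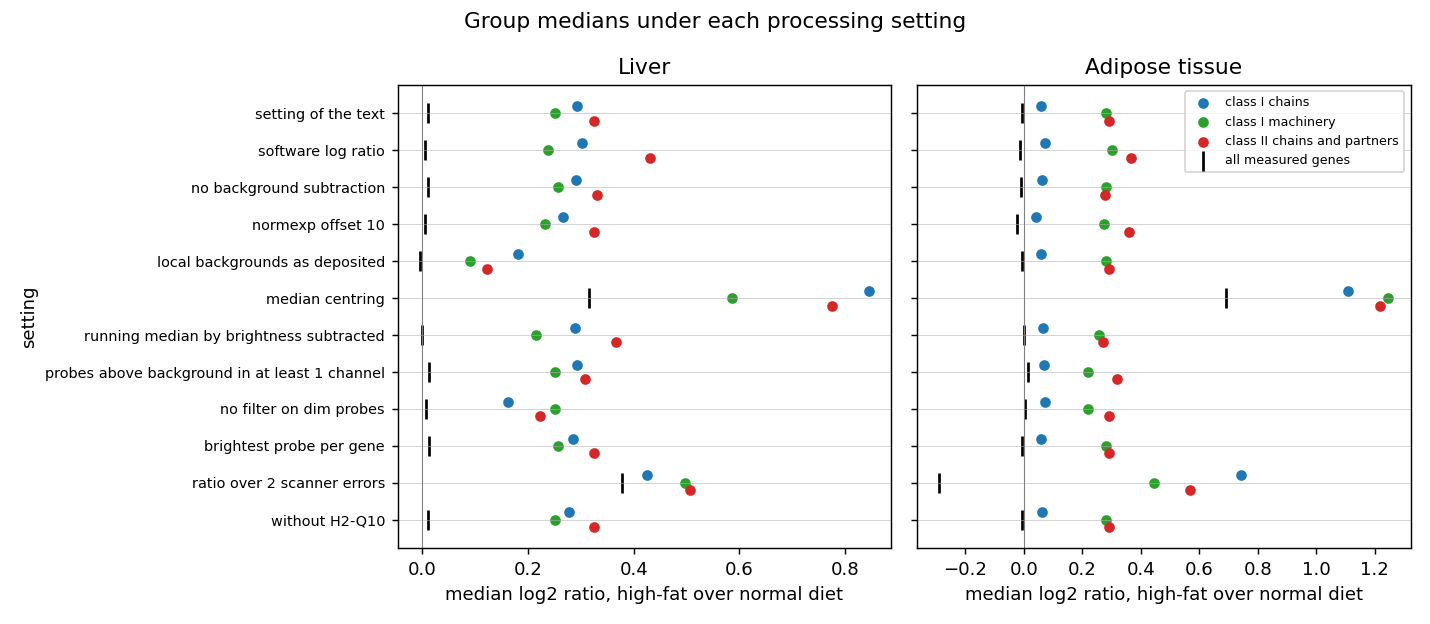
Median log2 ratio (x axis) of class I chains, class I machinery and class II chains with partners, and of all measured genes (black ticks), under each processing setting (y axis) in both tissues. Liver medians shrink with local backgrounds as deposited, and median centring moves all genes to 0.32 in liver and 0.69 in adipose tissue and the groups further.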

How the data were processed

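Per the labels, RNA was reverse transcribed with Cy3 (ND) or Cy5 (HFD), and the dyes give every ratio's direction. The scans were quantified by Feature Extraction 11.5.1.1 with protocol GE2_1105_Oct12 per the file headers, or by version 8.5.1.1 per the submitters' processing notes. The deposited files hold median spot and local background intensity per channel, not normalized, and the software's log10 ratio with its error. Mean signals were planned where present; the medians were used.

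In R 4.3.3 with limma 3.58.1, local backgrounds marked as outliers were replaced by the array's channel median, background was corrected (normexp, offset 50), and ratios went through loess, in which controls had weight 0; this was checked on simulated data. Spots of a probe and then probes of a gene were averaged on log2. Levels were put on 1 scale between arrays (Aquantile), which leaves ratios as they are. Bounds are open to dye bias and make no allowance for the scanner error.

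Class II genes, the machinery, H2-K1, H2-D1 and, per tissue, the 6 other class I chains with the largest absolute ratio got full values, and of other lists the 4 largest; members outside this rule are named to account for them, and marker genes such as Fabp2, Vil1, Alb, Ambp, Apoa1, Apob and Hnf4a were chosen after their values were seen. A gene that this rule takes is not reported here. Members, lists and rule were chosen with earlier results of these data known. Alternatives were the software's ratio, no background subtraction, offset 10, backgrounds as deposited, median centring, the running median subtracted, 2 filters on dim probes, the brightest probe and a ratio past 2 scanner errors, and, chosen after seeing the data, leaving out H2-Q10.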

Additional observations from a re-analysis of the deposited data

Results flagged for a closer look

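The ratio of H2-Q10 had opposite directions in the tissues: it was 0.31 in liver and -1.68 in adipose tissue. The difference was not tested, since there was 1 array per tissue, and the adipose value rests on 1 of its 2 probes (-3.22 against -0.13).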

How the results depend on the processing

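Each group median kept its sign under the alternatives run. Median centring, which corrects no drift with brightness, moved the median of all genes to 0.32 in liver and 0.69 in adipose tissue; it put class I chains at 0.84 and 1.11, the machinery at 0.59 and 1.25 and class II at 0.77 and 1.22, with 4 members at least 2-fold higher in liver, and 22 higher and 0 lower in adipose tissue. Under it 29 of 34 liver members and 27 of 34 adipose members kept their sign. Taking only ratios past 2 scanner errors, fewer genes by construction, gave 0.50 for the liver machinery (1 gene), and in adipose tissue 0.74 for class I chains (2 genes) and 0.57 for class II (4 genes). The scanner software's ratio put 1 liver member (H2-Q1, 1.06) at least 2-fold higher in place of 0, and 3 adipose members in place of 2 (H2-Oa, 1.01, was added). The shares of all genes past 2-fold under median centring and under the software's ratio are not given here. The 2-fold counts under these settings therefore cannot be read as particular to the members. Local backgrounds as deposited took the liver medians to 0.18, 0.09 and 0.12 and moved 8 of 34 liver members by more than their scanner error, and none of 34 in adipose tissue; the cause was not tested. Signals near background limit H2-Aa, Tap1, H2-DMa and DO in liver and H2-Q1, Tap1 and DO in adipose tissue. No paired analysis was possible because each tissue has 1 array.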
